A study of Mus musculus with 6 samples.

Results

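The genes described here are 39 genes of DNA replication and S phase, followed in the pineal gland of newborn mice that lack Neurod1. They were listed by name and found through the platform annotation of the array, taking probe sets assigned to exactly 1 gene, and for each gene the probe set of highest mean over all 6 arrays. Of the 39 genes, 38 had such a probe set, all but Chaf1a. The probe sets of Cdc6, Pole and Tyms were too dim for the test, which left 35 members among 12797 genes tested and 18193 named. The 3 homozygous Neurod1 knockout pools and the 3 wildtype pools were of strain 129, taken by day on postnatal day 0 from animals under a daily cycle of 12 h light and 12 h dark. Each pool combined 3 glands, its RNA went through 1 round of amplification, and it was run on 1 array. The labels call the knockout animals transgenic and name neither the deleted part of the gene nor the cells in which it was deleted. The pools were separate samplings, and in the labels a knockout pool and a wildtype pool with the same number carry 1 date. Values are the deposited signals, a linear fluorescence intensity. Differences are knockout minus wildtype on the scale log2(signal + 38.6), which understates the change of dim genes.

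Before S phase, the origin recognition complex, Cdc6 and Cdt1 load the ring of Mcm2 to Mcm7 onto origins. Cyclin-dependent kinases then turn that ring into the active helicase with Cdc45 and the GINS complex, and polymerases, the sliding clamp and its loader copy both strands while RPA covers single-stranded DNA. Many of these genes are targets of E2F transcription factors and are transcribed as cells pass from G1 into S phase, so in a tissue their transcripts follow the cells that divide. The rodent pineal gland still holds dividing precursors around birth. In whole glands, fewer dividing cells and less of a transcript per cell cannot be told apart.

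The targeted gene followed the labels. Neurod1 signals were 390.2, 524 and 122.5 in the knockout pools, against 9027, 9301 and 7519 in the wildtype pools, and it was the 1 gene called by limma (log2 difference −4.67, SE 0.45, adjusted p = 0.0362). With 1 pool left out its limma adjusted p ranged from 0.00561 to 0.621, above 0.05 without knockout pool 1 or without any 1 of the wildtype pools, while the difference stayed between −4.84 and −4.61 in those fits. The pinealocyte genes Tph1, Crx and Otx2 were measured in all 6 pools, at signals of at least 1681. The pools also differed in ways that genotype did not order. Over 122 ribosomal and respiratory chain genes, a list made after the data had been seen, the median log2 deviation from the average array was 1.2 in knockout pool 1, and the other 5 pools ranged from −0.68 to 0.10. The male germ cell gene Crisp2 reached a signal of 17677 in knockout pool 2, against 1700.1 in wildtype pool 2, with at most 11.2 elsewhere.

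No replication gene passed the test, but most had a lower mean in knockout. Of the 35 members in the test, 30 were lower and 5 higher in mean, which is 85.7% lower, beside 46.8% of all genes tested. The median difference was −0.34 for the members and 0.03 for all genes tested. At an adjusted p under 0.05 limma called 0 members, beside 0.00781% of all genes, and the adjusted p of each member was 0.998 or 0.999. At an unadjusted p under 0.05 there were 2 members, Mcm2 and Ccne2, both lower, or 5.71% of members beside 1.37% of all genes that were lower at that level. With the pool number as a block the same level held 9 members, all lower, or 25.7% of members beside 3.16% of all genes that were lower at that level. The 9 members were Mcm2, Mcm3, Mcm5, Mcm6, Rpa2, Slbp, Rrm2, Ccne2 and E2f1. The blocked limma fit again called 0 members at an adjusted p under 0.05. No knockout pool overlapped a wildtype pool for 5 members, Mcm2, Rfc5, Slbp, Rrm2 and Ccne2, and these were lower, as were 4.33% of all genes. The reverse, every knockout pool above every wildtype pool, held for 0 members and 5.77% of all genes. The counts shifted when a single pool was left out, which leaves the pool of the same number without its partner. Without wildtype pool 1 the median of the members was −0.20 and 0 members had an unadjusted p under 0.05, while without knockout pool 1 the median was −0.55 and 8 members had. The count over all genes tested, in either direction, moved as well. It was 428 in the main limma fit, 245 without wildtype pool 1 and 1161 without knockout pool 1. Without knockout pool 3 the median was −0.22. Without both pools numbered 1 it was −0.43 and without both numbered 2 it was −0.35, choices made after seeing the data. With limma array weights, which gave most weight to pool 2 of each group, 14 members were called, all lower, among 2932 genes called, 1420 of them lower and 1512 higher.

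**Figure D1:**
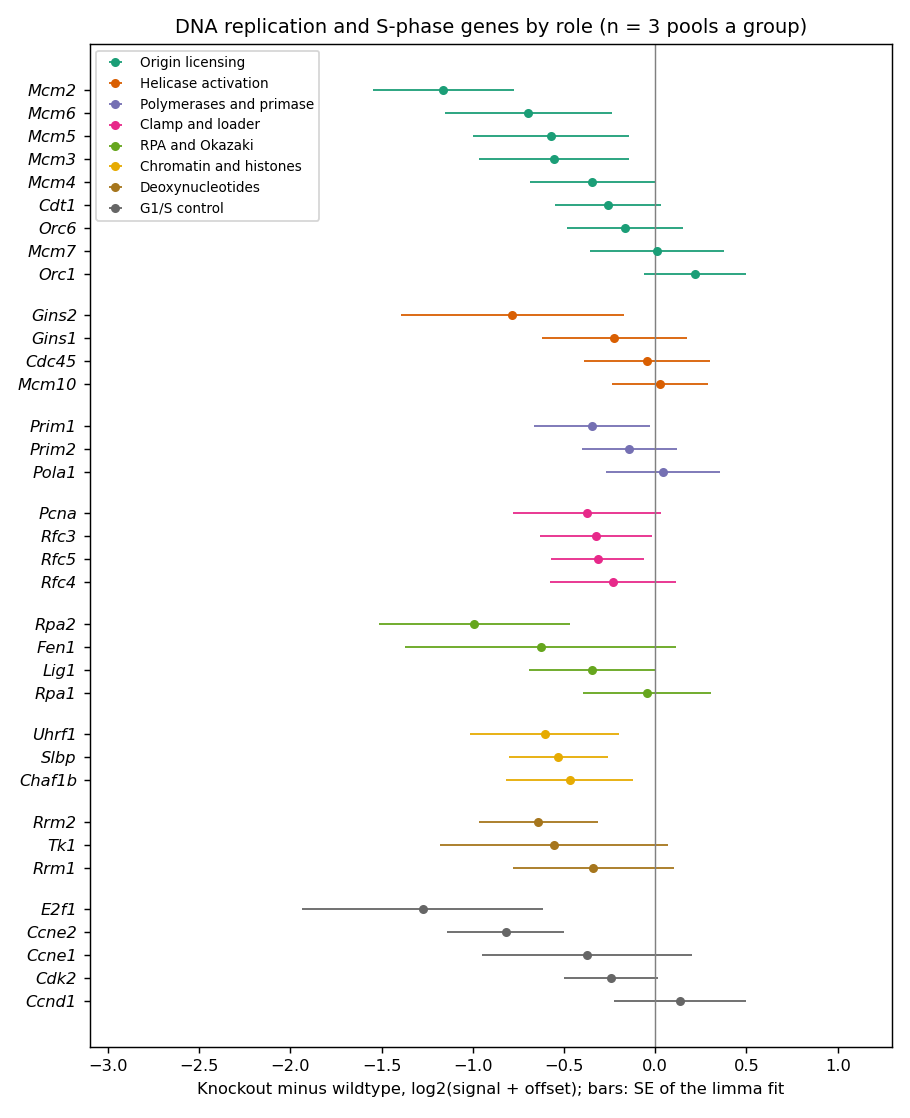
Difference of each tested member, grouped by role. The horizontal axis is knockout minus wildtype on the log2(signal + offset) scale, points are limma estimates from 3 pools a group and bars are 1 SE. Of 35 points 30 lie left of 0, from −1.27 for E2f1, and the highest is 0.22 for Orc1.

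Set against the pool of the same number, the members were lower in all 3 numbers about as far. The medians over members for pools numbered 1, 2 and 3 were −0.32, −0.39 and −0.40, while that of all genes tested was 0.11, 0.00 and −0.06. There were 25, 28 and 31 of the 35 members lower in the 3 numbers, beside 44.3, 49.7 and 54.4% of all genes. A lower signal within every number was found for 19 members, 54.3%, beside 15.4% of all genes. The range over members was widest within number 1, from −2.13 for Mcm2 to 2.24 for Fen1.

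**Figure D2:**
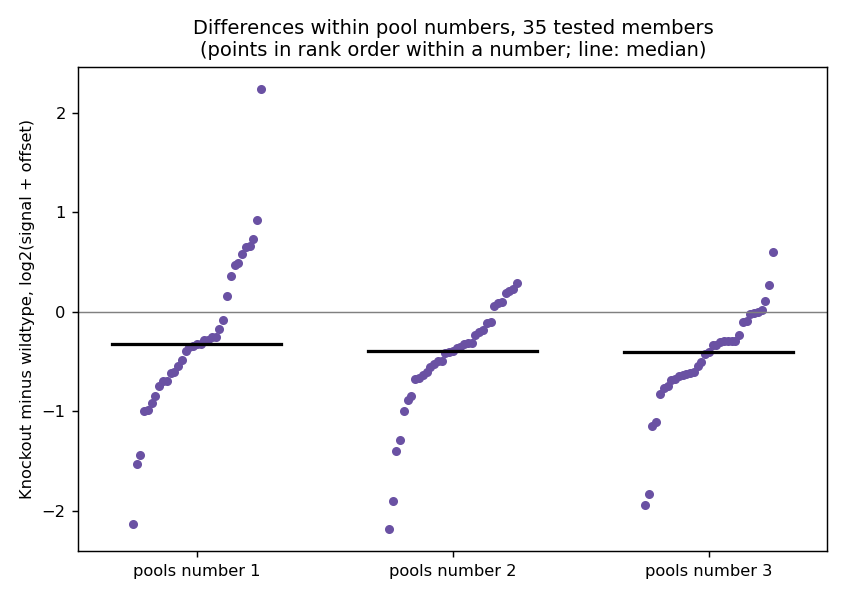
Knockout minus wildtype within each pool number for the 35 tested members on the log2(signal + offset) scale. Points are members in rank order and black lines are medians. The medians of −0.32, −0.39 and −0.40 lie below 0 in all 3 numbers, and the members spread most within number 1.

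The start regions of the members often held words of the kind that E2F factors bind. The genes were not chosen by these words, but many are E2F targets, so a high share was foreseeable from the list. Windows from 250 bases before to 50 bases after the gene start, from RefSeq on GRCm38.p6, were searched on both strands for 4 words of 7 letters of the E2F-binding type, which were TTCCCGC, next TTGGCGC, then TTCGCGC and finally TTGCCGC. A word on one strand can overlap a word on the other. At least 1 word was found for 20 of the 32 members with a window, or 62.5%, beside 18.9% of 10307 genes tested on the array with a window and 10.9% of all 27025 genes in the table. CG dinucleotides, which the words contain, numbered 23 per window in the median for members and 19 for genes tested. A match is a description of these letters and not a measured binding site. The 4 tested members of smallest p with a match were Rrm2, Rpa2, Mcm6 and Uhrf1, printed 5′ to 3′ on the strand of the gene with the words in capitals. Their signals were lower within all 3 pool numbers, but they were picked by p. Members with a word that are not printed went both ways. Mcm3, Mcm5 and Prim1 were lower within all 3 numbers. Mcm7, Orc1 and Pola1 were not, with differences of 0.01, 0.22 and 0.04. Mcm2 and Slbp, which had no word in their windows, were also lower within all 3 numbers. Whether a word goes with a lower signal was not tested. For Uhrf1 the first of 2 windows is given.
Rrm2, chr12:24708004-24708303, plus strand: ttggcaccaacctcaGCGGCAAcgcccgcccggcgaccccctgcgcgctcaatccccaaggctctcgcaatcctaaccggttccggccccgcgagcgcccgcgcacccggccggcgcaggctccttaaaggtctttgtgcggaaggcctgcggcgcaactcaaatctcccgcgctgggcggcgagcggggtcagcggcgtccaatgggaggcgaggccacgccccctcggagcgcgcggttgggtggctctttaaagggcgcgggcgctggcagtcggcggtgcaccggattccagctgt
Rpa2, chr4:132768110-132768409, plus strand: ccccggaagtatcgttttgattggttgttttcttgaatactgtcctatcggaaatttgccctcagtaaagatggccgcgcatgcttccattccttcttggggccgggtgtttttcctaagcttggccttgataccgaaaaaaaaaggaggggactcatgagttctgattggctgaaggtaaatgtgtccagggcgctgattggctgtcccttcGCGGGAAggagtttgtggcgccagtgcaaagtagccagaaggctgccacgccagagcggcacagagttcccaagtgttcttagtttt
Mcm6, chr1:128359656-128359955, minus strand: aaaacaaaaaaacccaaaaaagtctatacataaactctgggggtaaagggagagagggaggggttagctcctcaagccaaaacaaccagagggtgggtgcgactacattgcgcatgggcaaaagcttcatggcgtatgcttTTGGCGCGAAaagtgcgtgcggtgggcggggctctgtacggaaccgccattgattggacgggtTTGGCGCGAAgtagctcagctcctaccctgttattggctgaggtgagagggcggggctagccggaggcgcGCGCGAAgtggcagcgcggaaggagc
Uhrf1, chr17:56303087-56303386, plus strand: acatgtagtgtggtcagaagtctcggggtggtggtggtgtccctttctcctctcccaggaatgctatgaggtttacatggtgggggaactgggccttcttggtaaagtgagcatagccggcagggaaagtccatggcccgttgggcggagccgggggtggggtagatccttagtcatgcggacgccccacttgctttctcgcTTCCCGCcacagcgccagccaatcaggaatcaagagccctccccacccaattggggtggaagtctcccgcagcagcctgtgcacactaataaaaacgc

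The Rrm2 word begins at position −235 relative to the gene start and the Rpa2 word at −37. Mcm6 has 3 places, at −109, −46 and 24, the first 2 of which are overlapping words of both strands. The printed Uhrf1 word begins at −48. No such word was found in the windows of Mcm2 and Slbp. The E2f1 window lies inside the gene, downstream of its outermost start, and does not cover its upstream region. The members with no window in the table were Ccnd1, Pole, Gins1, Ccne2, Gins2, Mcm4 and Prim2.

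The genes that load the helicase included the member with the smallest p. Of the 9 tested members of origin licensing, 7 had a lower mean, with a median difference of −0.34. Mcm2, a subunit of the helicase ring, had signals of 398, 623 and 450.1 in the knockout pools, against 1877, 1152 and 654.5 in the wildtype pools. Every knockout pool was below every wildtype pool, and wildtype pool 1 was the highest. The difference was −1.16 (SE 0.39, unadjusted p = 0.0152), and −2.13, −0.85 and −0.50 within numbers 1, 2 and 3.

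Mcm3, Mcm5 and Mcm6, further subunits of the ring, had the same order of pool numbers in both groups. Mcm6 had signals of 1020.5, 405 and 385 in knockout pools 1, 2 and 3, against 1576, 781 and 601 in wildtype pools 1, 2 and 3. Mcm5 had 678, 357 and 230.3 in knockout, against 963, 539.7 and 396 in wildtype. Mcm3 had 577, 291 and 272 in knockout, against 958, 489 and 341 in wildtype. For all 3 genes the knockout pool was below its wildtype partner in every number, although knockout pool 1 was above wildtype pools 2 and 3, so the groups overlapped. Their differences were −0.70 (SE 0.46) for Mcm6, −0.57 (SE 0.43) for Mcm5 and −0.56 (SE 0.41) for Mcm3. With the number as a block the SE was 0.22 for Mcm5 and Mcm6 and 0.23 for Mcm3. The estimates depended on which pool was left out: without wildtype pool 1 they were −0.31 for Mcm6, −0.24 for Mcm5 and −0.17 for Mcm3, and without knockout pool 1 they were −1.13, −0.95 and −0.87.

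Mcm4 had a smaller difference of the same kind and Mcm7 differed little between the group means. Mcm4 had signals of 2084, 1203 and 1513 in knockout, against 2752, 1543 and 1857 in wildtype, with −0.39, −0.35 and −0.29 within the 3 numbers. Mcm7 had 1312, 1317 and 856 in knockout, against 1644, 1258 and 701 in wildtype. Its difference was 0.01 (SE 0.37), and the order of the groups turned between numbers 1 and 3. Cdt1, which brings the ring to the origin, was lower within all numbers (difference −0.26, SE 0.29). The origin recognition genes Orc1 and Orc6 had differences of 0.22 (SE 0.28) and −0.17 (SE 0.32), with overlapping groups.

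Cdc6, the other loader, was below the brightness limit for testing, which corresponds to a signal of 105, with a mean equivalent to 92.1. The dimmest member that was tested, Tk1, stood at 107. Cdc6 signals were 46.7, 81.9 and 50.1 in the knockout pools, against 151, 132 and 131 in the wildtype pools, so the groups did not overlap. In the fit without the limit its difference was −0.86 (SE 0.32, unadjusted p = 0.0241). Its adjusted p in that limma fit was 0.998.

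The genes that activate the helicase did not share a direction between pools. Gins2, of the GINS complex, had signals of 527, 69.2 and 69.3 in the knockout pools, against 319, 364 and 195 in the wildtype pools. Knockout pool 1 was the highest of all 6, and the other knockout pools were the lowest. The difference was −0.78 (SE 0.61), with 0.66, −1.90 and −1.11 within the numbers and −1.58 without knockout pool 1. Cdc45, which joins the ring in the active helicase, had 125, 252 and 274 in knockout, against 169.8, 209 and 277 in wildtype. Mcm10, a factor that helps to start the helicase, had 360.3, 288.5 and 311 in knockout, against 249, 316 and 388 in wildtype. The groups overlapped for both genes, with differences of −0.05 (SE 0.34) and 0.02 (SE 0.26), and Gins1 had −0.22 (SE 0.40). None of the 4 genes was lower within all numbers.

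Among the polymerases and primases, Prim1 was lower within every number. This gene of the catalytic primase subunit had signals of 865, 576 and 503 in knockout, against 1057, 845 and 598 in wildtype, a difference of −0.34 (SE 0.32). The estimate was −0.16 without wildtype pool 1 and −0.56 without knockout pool 1. Prim2, the regulatory primase subunit gene, and Pola1, of the polymerase that extends primers, had −0.14 and 0.04. Pole, of the leading-strand polymerase, lay below the limit, with signals of at most 15.2 in knockout and of 94.2, 8.3 and 13.8 in wildtype.

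The clamp and its loader had lower means for all 4 tested members, with differences of −0.38 to −0.23. Pcna, the sliding clamp gene, had signals of 5508, 5340.0 and 2467 in the knockout pools, against 6675, 6267.5 and 3815 in the wildtype pools. Each knockout pool was below its partner, yet knockout pools 1 and 2 were above wildtype pool 3. The difference was −0.38 (SE 0.41), with −0.28, −0.23 and −0.62 within numbers 1, 2 and 3. It was −0.001 without knockout pool 3, in a fit that keeps wildtype pool 3, the lowest of its group. Rfc5, a loader subunit gene, had 245, 291.5 and 333.4 in knockout, against 438, 335.2 and 338 in wildtype, and the groups missed each other by under 2 signal units. Its difference was −0.31 (SE 0.25) and −0.20 without wildtype pool 1. Rfc3 and Rfc4 were higher in knockout within number 1, at 0.16 and 0.36, and lower within number 3, at −0.83 and −1.15.

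Rpa2 had the lowest difference among the genes of single-strand binding and Okazaki fragments. This subunit gene of RPA had signals of 229, 115 and 59.7 in knockout, against 468, 367.5 and 115.4 in wildtype. Within the numbers the difference was −0.92, −1.40 and −0.65, and over all pools −0.99 (SE 0.52), ranging from −1.51 without wildtype pool 3 to −0.64 without knockout pool 3. Fen1, a nuclease that trims Okazaki fragments, had 7478, 1141 and 1592 in knockout, against 1549, 5321 and 6238 in wildtype. Its pools split by number and genotype together, high in knockout pool 1 and wildtype pools 2 and 3. The difference of −0.63 (SE 0.74) therefore stood for 2.24, −2.18 and −1.94 within the numbers, and it became −1.44 once knockout pool 1 was left out and −0.10 once knockout pool 2 was. These Fen1 signals are from the brighter of 2 probe sets. The other, below the brightness limit, had 117.6, 109.2 and 16.5 in knockout, against 168.3, 80.8 and 84.8 in wildtype. Its differences within the numbers were −0.41, 0.31 and −1.16, so it did not repeat that split. Lig1, the ligase gene, and Rpa1 had −0.35 and −0.05.

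All 3 tested members of chromatin assembly, maintenance methylation and histone supply were lower within every number. Slbp, which binds the stem-loop of histone messages, had signals of 1477, 1455 and 1375 in the knockout pools, against 2431, 2055 and 1828 in the wildtype pools. The knockout pools were close together and all below wildtype, with a difference of −0.53 (SE 0.27). Uhrf1, which guides DNA methylation to newly copied strands, had 1354, 3347 and 2069 in knockout, against 3975, 3839.6 and 2219 in wildtype. Its difference of −0.61 (SE 0.41) was −1.53 within number 1 and −0.20 and −0.10 within numbers 2 and 3, and −0.29 without knockout pool 1. Chaf1b, of the histone chaperone CAF-1, had 138.5, 69.3 and 134 in knockout, against 182, 133 and 192 in wildtype. That difference was −0.47 (SE 0.35) and −0.24 without knockout pool 2.

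The genes of deoxynucleotide supply were also lower within every number for all 3 tested members. Rrm2, the small subunit gene of ribonucleotide reductase, had signals of 3432, 5056 and 6406.5 in knockout, against 6879.5, 7679 and 8046 in wildtype. The groups did not overlap, and the difference was −0.64 (SE 0.33) and −0.40 without knockout pool 1. Rrm1, the large subunit gene, had 1319, 818 and 435 in knockout, against 1485, 1028 and 649.7 in wildtype, with the same order of pool numbers in both groups. Its difference was −0.34 (SE 0.44), or −0.71 with knockout pool 1 left out and 0.06 with knockout pool 3 left out. Tk1, the thymidine kinase gene, had a difference of −0.55 (SE 0.63). Tyms, which makes thymidylate, lay below the limit, with overlapping signals of 24.0 to 91.7 in knockout and 33.2 to 127 in wildtype.

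The regulators of S-phase entry ranged from E2f1, the lowest difference of all members, to Ccnd1, one of the few with a higher mean. E2f1, a transcription factor gene of the G1 to S step, had signals of 441.5, 167 and 39.6 in knockout, against 913, 374 and 240.2 in wildtype. Knockout pool 1 was above wildtype pools 2 and 3, while within numbers the difference was −0.99, −1.0 and −1.83. Over all pools it was −1.27 (SE 0.66), and −0.61 without knockout pool 3 or −1.91 without knockout pool 1. Ccne2, a cyclin E gene, had 263, 497 and 569 in knockout, against 783, 668 and 891 in wildtype. Its groups did not overlap, and the difference was −0.82 (SE 0.32, unadjusted p = 0.0306), or −0.51 without knockout pool 1.

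The other cyclin E gene, Ccne1, had 689, 91.9 and 129.9 in knockout, against 345, 281 and 245 in wildtype. Here knockout pool 1 was the highest and the other knockout pools the lowest, giving 0.92, −1.29 and −0.75 within the numbers. The Ccne1 difference of −0.37 (SE 0.58) became −1.14 once knockout pool 1 was left out and 0.10 once knockout pool 2 was. Ccnd1, the cyclin D1 gene, had 2960.2, 1289 and 1443 in knockout, against 1776, 1606 and 1446 in wildtype, a difference of 0.14 (SE 0.36) that was −0.23 without knockout pool 1. Cdk2, the kinase partner of cyclin E, had −0.24 (SE 0.26).

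**Figure D3:**
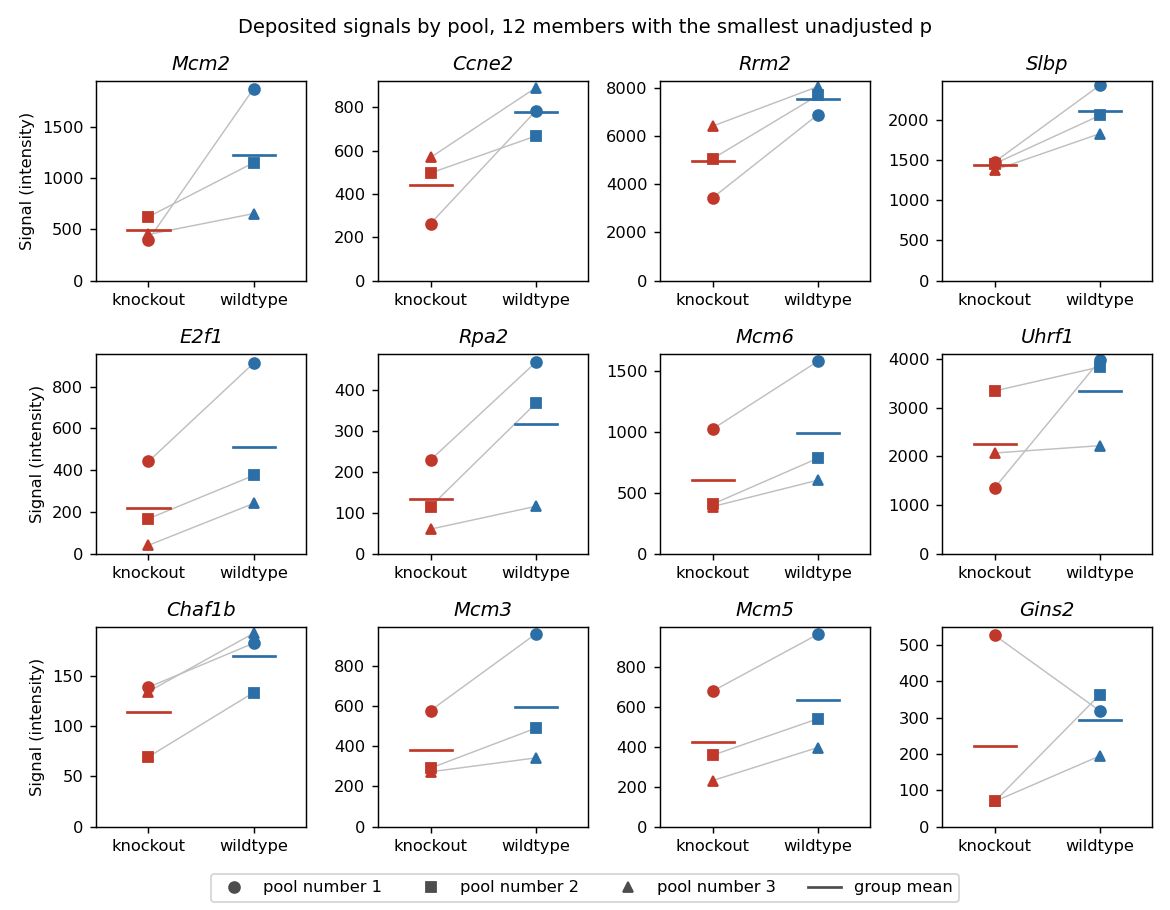
Deposited signals of the 12 members with the smallest unadjusted p, knockout left and wildtype right in each panel, on a linear axis that starts at 0. Symbols are pool numbers, grey lines join pools of 1 number and short bars are group means. For Mcm2, Ccne2, Rrm2 and Slbp all knockout pools lie below all wildtype pools, while for Gins2 knockout pool 1 is the highest of the 6.

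Probe sets of 1 gene did not always give the same answer. The other probe sets of tested members that passed the brightness limit numbered 26, and 18 of them were lower and 8 higher in mean in the knockout pools, with a median of −0.21. Several probe sets past the limit were available for 21 members. For 11 of these 21 another probe set had the opposite sign or lay over 0.5 away on the log2 scale. Slbp was the plainest case. Its second probe set had signals of 1502, 1531 and 1556 in the knockout pools, against 842, 1450.1 and 1012 in the wildtype pools, so it was higher in every knockout pool, with a difference of 0.50. The brighter Slbp probe set was lower in every knockout pool. With the mean of all probe sets of a gene in place of the brightest, Slbp had a difference of −0.02, Mcm2 −0.62 (unadjusted p = 0.119), Rrm2 −0.33, Mcm3 −0.18, Rrm1 −0.07, Gins2 −0.48 and Ccne1 −0.14, and of the 2 members with an unadjusted p under 0.05 Ccne2 remained. The sources used here do not say which transcript form each probe set reads.

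For Mcm2 and Rrm2 the second probe set showed no such separation. For Mcm2 it had signals of 445, 153.5 and 153.3 in knockout, against 402, 252 and 128 in wildtype, a difference of −0.09 beside −1.16. For Rrm2 it had 567, 600.4 and 524 in knockout, against 708.5, 797 and 321.5 in wildtype, a difference of −0.02 beside −0.64. For Mcm3 the next brightest probe set had 452, 310.3 and 303 in knockout, against 667, 371 and 346 in wildtype, lower within every number, with a difference of −0.31. A dimmer Mcm3 probe set had 220.1, 146 and 95.7 in knockout, against 91.6, 152 and 92.6 in wildtype, a difference of 0.33 beside the −0.56 of the brightest. Gins2 had −0.18 beside −0.78. Rrm1 had 0.41 beside −0.34, Mcm7 −0.51 beside 0.01 and Ccne1 0.10 beside −0.37. Ccnd1 had −1.41 from a dimmer probe set, beside 0.14. Mcm10 and Cdc45 had probe sets of opposite sign with differences of −0.04 and 0.09.

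On this kind of array a name ending in _s_at or _x_at marks a probe set that can also read other transcripts. The representative of 10 of the 35 members had such a name, namely Mcm2, Mcm3, Mcm4, Mcm5, Mcm6, Mcm7, Gins2, Fen1, Rrm2 and Ccne1. Of these, 9 had a lower mean, with a median of −0.60. Of the other 25 members 21 had a lower mean, with a median of −0.32. Over all genes tested the median was 0.02 for the 1480 genes with such a representative and 0.03 for the other 11317. This split was chosen after the data had been seen.

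**Figure D4:**
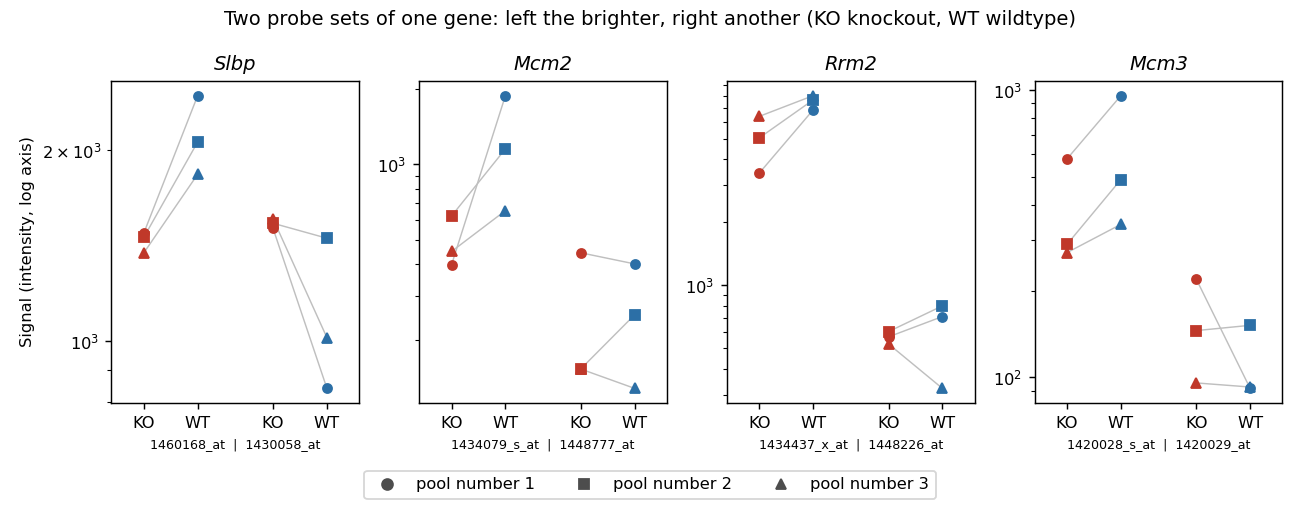
Signals of a pair of probe sets for each of Slbp, Mcm2, Rrm2 and Mcm3, the brighter on the left of a panel, on a log axis. Knockout pools stand left of wildtype pools and symbols are pool numbers. For Slbp the brighter probe set is lower in all knockout pools and the other is higher in all of them.

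The members were ordered by pool as well as by genotype. Relative to the mean of the 6 arrays, the median of the 35 members was 0.24, −0.24 and −0.43 in knockout pools 1, 2 and 3, against 0.46, 0.16 and −0.11 in wildtype pools 1, 2 and 3. Pools numbered 1 were thus the highest and pools numbered 3 the lowest in both groups. Wildtype pool 1 held the highest value of 21 of the 35 members, and knockout pool 3 the lowest value of 15. Knockout pool 1 held the highest value of 8 members and the lowest of 8 others. The range between pools of a group had a median of 0.94 over members in knockout and 0.78 in wildtype on the log2 scale, beside 0.79 and 0.62 over all genes tested.

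The sum of the members' signals was 40784, 30750 and 27139 in the knockout pools, against 47535, 44157 and 37783 in the wildtype pools. Knockout pool 1 was above wildtype pool 3, so the sums overlapped. Bright genes such as Rrm2, Pcna and Fen1 make up much of such a sum.

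Other genes of replication and G1/S control had median differences of smaller size than the members. Of 32 tested genes of the remaining replication machinery, 20 had lower and 12 had higher means, with a median of −0.11 and 0 with an unadjusted p under 0.05. Pole4, an accessory subunit gene of polymerase epsilon, had signals of 542, 289 and 309 in knockout, against 596, 546 and 662 in wildtype (difference −0.66, SE 0.29). Orc2, of the origin recognition complex, had −0.46 (SE 0.24) and Top1, the topoisomerase I gene, −0.50 (SE 0.31), and for all 3 genes the groups did not overlap. Of 15 genes of deoxynucleotide and histone supply, 11 were lower and 4 higher in mean, with a median of −0.29. Hells, a chromatin remodeller gene of dividing cells, had 508, 506 and 631 in knockout, against 1402, 1059.5 and 887 in wildtype. Its difference was −0.96 (SE 0.28, unadjusted p = 0.00721, limma adjusted p = 0.998). Shmt1, of one-carbon metabolism, had 0.94 (SE 0.44) and Rrm2b, the ribonucleotide reductase subunit gene outside S phase, −0.38 (SE 0.31), both with overlapping groups.

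Of 27 further G1/S regulators 18 had lower and 9 higher means, with a median of −0.26. The groups did not overlap for 7 that were lower and 1 that was higher, beside 4.33% and 5.77% of all genes. E2f8, which encodes a repressor among the E2F factors, had signals of 501, 811 and 491 in the knockout pools, against 276, 242 and 374.5 in the wildtype pools. Every knockout pool was higher, with a difference of 0.91 (SE 0.29, unadjusted p = 0.0126). E2f5, another E2F gene, had 3759, 6652 and 2383 in knockout, against 809, 3734 and 959 in wildtype (difference 1.42, SE 0.60). Mycn, a growth-promoting transcription factor gene, had 1515.5, 2606 and 2132 in knockout, against 4014, 3629 and 2988 in wildtype (difference −0.78, SE 0.32). All 3 had an adjusted p of 0.998 in limma.

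Mitosis genes were divided nearly evenly between lower and higher means. Of 24 tested mitosis genes, which include Mki67, Top2a and Cdk1, 13 had lower and 11 had higher means, with a median of −0.01 and medians of 0.04, −0.01 and −0.22 within the numbers. Nusap1 and Cenpe, genes of the spindle and of the kinetochore, had −0.41 (SE 0.25) and −0.38 (SE 0.24), with no overlap of the groups. Hmmr, a spindle gene, had signals of 619, 477 and 373 in knockout, against 217, 335 and 421 in wildtype, a difference of 0.56 (SE 0.31). Whether the members and the mitosis genes differ was not tested.

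Of the markers of cells that the gland could hold, limma called Neurod1 alone, and the others are given by their means. Pinealocyte markers, Neurod1 included, had lower means for 10 of 11, with summed signals of 26798 to 46130 in knockout and 46328 to 67616 in wildtype. Without the deleted gene the sums overlapped, at 26675 to 45740 in knockout and 38809 to 58589 in wildtype. Higher means were found for 10 of 10 macrophage and microglia markers, with sums of 8772 to 11925 in knockout and 7068 to 7581 in wildtype, and for 7 of 7 pericyte and smooth muscle markers, with sums of 14713 to 22863 in knockout and 10856 to 14464 in wildtype. Of 8 meningeal fibroblast markers all had higher means, with sums of 106586 to 124871 in knockout and 82466 to 89102 in wildtype, as had 7 of 8 endothelial markers (5387 to 8285 in knockout, 4836 to 9980 in wildtype). Neural progenitor markers were split, with 4 lower and 4 higher (22277 to 37410 in knockout, 21499 to 26482 in wildtype). Red blood cell precursor markers had 2 lower and 1 higher mean of 3 tested (473 to 1228 in knockout, 944 to 1253 in wildtype). Choroid plexus markers had 2 lower and 4 higher means of 6 tested (12988 to 103013 in knockout, 15922 to 87897 in wildtype). Otx2 is in this list and in the pinealocyte list. It makes up most of the lowest sums, with 10194 in knockout pool 3 and 12786 in wildtype pool 1. Ttr, of the choroid plexus list, had 87464, 58637 and 685 in knockout, against 898, 38903 and 60484 in wildtype. Male germ cell genes had 2 lower and 4 higher means of 6 (388 to 28895 in knockout, 305 to 4139 in wildtype). No tested marker was listed at 0. The part of these cells in the lower means of the S-phase genes was not tested.

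**Figure D5:**
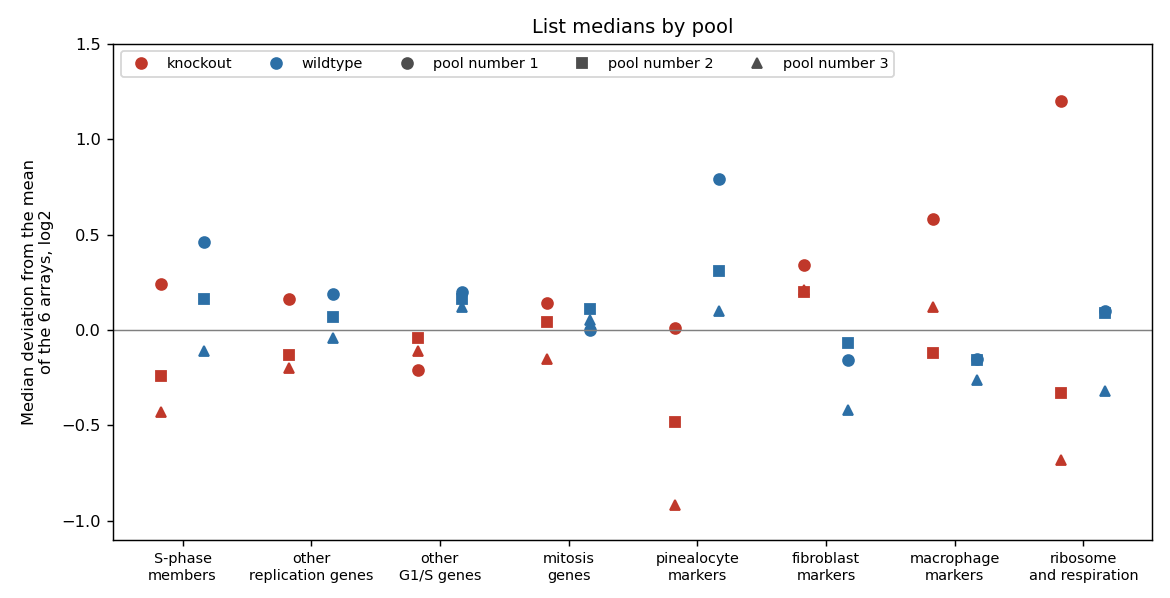
Median log2 deviation of each list from the average of the 6 arrays, by pool, knockout left and wildtype right in each column. Symbols are pool numbers. The S-phase members run from 0.24 to −0.43 in knockout and from 0.46 to −0.11 in wildtype, and the ribosomal and respiratory chain list stands at 1.2 in knockout pool 1.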

How the data were processed

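Whole pineal glands were measured on 6 one-colour expression arrays, each a pool of 3 glands. The authors deposited a linear signal intensity per probe set, made with GCOS per the submitters' processing notes; the sources used here do not give the signal algorithm. The deposited values of each array had a trimmed mean of 499.02 to 499.54, and nothing was rescaled. Signals became log2(signal + 38.6), the offset being the 20th percentile of all deposited values.

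Of 45037 probe sets, 34945 named 1 gene, 932 several and 9160 none; 34741 matched RefSeq by gene identifier and 0 symbols changed. The probe set of highest mean log2 value stood for its gene, and probe sets in the lowest 40% by that mean were left out. limma 3.58.1 (lmFit, eBayes with trend, R 4.3.3) was fitted over 12797 genes with Benjamini-Hochberg adjustment. The fit was also run on simulated arrays with independent noise, no pairing by number and changes in bright genes only. Those changes were larger than the median difference of the members, so that run does not gauge the fit for differences of their size. Precision is limited by having 6 arrays (median SE 0.34). An exact permutation test of 3 against 3 cannot go below 0.1.

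Pools of 1 number share a date in the labels, and their deviations from the group means correlated at 0.32, 0.25 and 0.36, against −0.28 to −0.04 between numbers, so the alternative with the number as a block treats them as paired (median SE 0.28). Other alternatives changed the offset, normalization, filter, probe set choice, variance model and pools. Per-pool signals were given for the 12 members of smallest p, the first of each of 8 role groups, members without overlap, the 3 brightest and those with a disagreeing probe set. Of each list of other replication, supply, G1/S and mitosis genes the 3 of smallest p were named. Signals of Mcm4, Cdc6, Pole and Tyms were given outside this rule after their values were seen. The same holds for the naming of Tph1, Crx, Otx2, Ttr, Crisp2, Mki67, Top2a and Cdk1. The members and lists were chosen with earlier results of these data known.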

Additional observations from a re-analysis of the deposited data

How the results depend on the processing

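The 22 members chosen by the naming rule, which leaves out Mcm4, Cdc6, Pole and Tyms, kept their sign in 368 of 392 values over 18 alternatives. The median difference was −0.43 without both pools numbered 1, a choice made after seeing the data, and ranged from −0.55 to −0.20 with 1 pool left out. Members at an unadjusted p under 0.05, 2 in the main setting, numbered 9 with the replicate block, 1 with the mean of all probe sets, 19 with array weights, 5 without both pools numbered 1, 1 without both pools numbered 2 and 0 to 8 with 1 pool left out. Among all 12797 genes tested, limma placed 428 at that level in the main setting. It placed 798 there with the block, 475 with the mean of all probe sets and 4969 with array weights. Without both pools numbered 1 or 2 these were 723 and 123, and with 1 pool left out 215 to 1161. Array weights called 2932 genes in limma (1420 lower, 1512 higher), 14 members among them, all lower; the weights were 0.204, 6.2 and 0.449 for the knockout pools and 0.541, 7.05 and 0.46 for the wildtype pools, so 1 pool of each group dominated that fit. Genes called numbered 0 with no offset, with quantile normalization and without both pools numbered 1 or 2 (420, 422, 723 and 123 genes at an unadjusted p under 0.05), and 0 to 1 with 1 pool left out. The replicate block changed no other call.

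Signs turned for Mcm10 at −0.045 with quantile normalization. With the mean of all probe sets Mcm7 was −0.014, Mcm10 −0.006, Cdc45 0.024 and Ccnd1 −0.309. With array weights Mcm10 was −0.095, Cdc45 0.21 and Ccnd1 −0.265. Without both pools numbered 1 Mcm10 was −0.20, Cdc45 0.109 and Ccnd1 −0.156, and without both numbered 2 Mcm7 was −0.022, Fen1 0.149 and Ccne1 0.086. With 1 pool left out the range was −0.326 to 0.267 for Mcm7, −0.121 to 0.164 for Mcm10, −0.219 to 0.25 for Cdc45, −0.705 to 0.055 for Rrm1, −1.139 to 0.10 for Ccne1 and −0.228 to 0.36 for Ccnd1. The cause was not tested. Dim probe sets limit Cdc6, Pole and Tyms.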
